A study of Mus musculus with 36 samples.

Results

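Mouse bone marrow-derived dendritic cells exposed for 6 h to LPS alone (group L) were set against the same cells exposed for 6 h to the ligand labelled HMW alone (group H), to find the chromatin regions that tell the 2 ligands apart. The 4 libraries compared, L and H in duplicate, were chosen by their labels out of 36 libraries in 18 groups. The assay was ATAC-seq, which reads open chromatin from the places where a transposase can cut and tag DNA. All groups used here came from cells labelled C57BL/6, grown in GM-CSF from the marrow of females 6 to 8 weeks old. Besides L and H they were the unstimulated control (Ctrl), both ligands together (LH), PAM alone (P), PAM with LPS (PL) and PAM with HMW (PH), each with 2 libraries taken at 6 h. Such cultures are mixtures of dendritic cell-like and macrophage-like cells, and the labels give neither a dose nor the full names behind PAM and HMW. The labels do not say whether the 2 libraries of a group came from separate mice or cultures, so p-values measure the spread between libraries, which may be technical.

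LPS, lipopolysaccharide, is a component of the outer membrane of Gram-negative bacteria. It is sensed by TLR4 with its partners MD-2 and CD14, and TLR4 signals through the adaptors MyD88 and TRIF, which lead to NF-kappaB, AP-1 and interferon regulatory factors. In dendritic cells these factors bind promoters and distant enhancers of cytokine, chemokine and interferon-stimulated genes, where chromatin becomes more accessible. An ATAC-seq peak is such an accessible region, and its counts rise with the share of cells and alleles that are open there. In a bulk sample, fewer cells open at a region and less opening per cell cannot be told apart.

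The promoters of 5 responsive genes are shown because the peaks over them separated the ligands in opposite directions: Il6, Nfkb2 and Socs3 had more accessible starts in L, and Cxcl1 and Cxcl2 had more accessible starts in H. The sequences are the 250 bases before the gene start from RefSeq (build GRCm38.p6), read 5′ to 3′ in the direction of the gene. Capitals mark matches to GGNNTTTCC, the NF-kappaB motif searched, on either strand.
Il6, chr5:30012864-30013113 (plus strand): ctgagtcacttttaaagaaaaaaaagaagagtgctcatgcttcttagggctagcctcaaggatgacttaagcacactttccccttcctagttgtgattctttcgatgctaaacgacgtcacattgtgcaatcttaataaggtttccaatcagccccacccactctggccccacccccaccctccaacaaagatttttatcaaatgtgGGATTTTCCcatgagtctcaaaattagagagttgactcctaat
Nfkb2, chr19:46304487-46304736 (plus strand): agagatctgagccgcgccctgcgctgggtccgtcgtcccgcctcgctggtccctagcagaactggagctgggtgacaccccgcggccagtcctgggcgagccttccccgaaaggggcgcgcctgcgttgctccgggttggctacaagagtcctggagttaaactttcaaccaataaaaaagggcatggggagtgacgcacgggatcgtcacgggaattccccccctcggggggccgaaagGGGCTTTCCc
Socs3, chr11:117969367-117969616 (minus strand): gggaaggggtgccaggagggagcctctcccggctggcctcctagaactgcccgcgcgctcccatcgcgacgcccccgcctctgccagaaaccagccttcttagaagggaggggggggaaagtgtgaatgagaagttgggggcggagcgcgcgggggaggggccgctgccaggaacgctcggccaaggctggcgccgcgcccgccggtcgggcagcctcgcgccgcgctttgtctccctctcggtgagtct
Cxcl1, chr5:90890995-90891244 (plus strand): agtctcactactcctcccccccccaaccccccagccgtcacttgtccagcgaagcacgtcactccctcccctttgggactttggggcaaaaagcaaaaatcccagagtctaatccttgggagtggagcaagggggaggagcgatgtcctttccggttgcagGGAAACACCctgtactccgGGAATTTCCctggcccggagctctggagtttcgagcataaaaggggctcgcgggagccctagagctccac
Cxcl2, chr5:90903649-90903898 (plus strand): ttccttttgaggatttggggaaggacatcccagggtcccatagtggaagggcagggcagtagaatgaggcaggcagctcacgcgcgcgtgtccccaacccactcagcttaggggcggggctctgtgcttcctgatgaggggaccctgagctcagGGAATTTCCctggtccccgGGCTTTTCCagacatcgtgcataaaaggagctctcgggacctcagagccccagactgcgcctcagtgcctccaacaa
Il6 had 1 match, starting 43 bases before the gene start, and Nfkb2 had 1, starting 10 bases before it. Cxcl1 had a match starting 70 bases before its start and a second, on the opposite strand, 89 bases before. Both matches of Cxcl2, starting 96 and 77 bases before the start, were on the strand of the gene. No match lay in the Socs3 window shown, which held the STAT motif TTCNNNGAA starting 154 bases before the start. The Nfkb2 window held the STAT motif too, starting 148 bases before its start. A match is a string of letters and not evidence of binding. In the 300 bases around the start (250 before to 50 after), 6.2% of all promoters with a tested peak held the NF-kappaB motif.

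The L libraries held 12423231 and 16530431 counts outside the mitochondrial genome and the H libraries 15064439 and 11597648. Across 119464 tested peaks, log2 CPM (counts scaled to library size after TMM) correlated with Pearson's r of 0.948 between the L libraries and 0.94 between the H libraries, against 0.912 to 0.932 across the ligands. All 10 dendritic cell markers, among them Itgax, Cd74 and Zbtb46, and all 10 macrophage markers had a peak at their start. Summed CPM was 111 and 131 in L against 129.7 and 126 in H for the dendritic list. Of the macrophage list, Adgre1 was higher in L, and the summed CPM of that list was 194 and 194 in L against 194 and 171 in H. No marker of neutrophils, T, B, mast, erythroid cells or fibroblasts was called, and 1 or 2 genes of each of those lists had a start peak. The mitochondrial genome took 44.6% and 44.1% of counts in L and 49.9% and 53.4% in H, with no overlap. It took 61.9% and 60.1% in control, the highest of the groups used here, and 50.5% and 48.5% in P. The share was 49.8% and 53.4% in LH, 49.4% and 53.8% in PL and 48.7% and 52% in PH. Outside it, 17 peaks had a mean over 1000 CPM and were kept in the fit. The highest, on chromosome 1, had a mean CPM of 118456 in L, 174112 in H and 310090 in control. It took 1681964 and 2189219 of the counts outside the mitochondrial genome in L and 2482382 and 2209264 in H. The next, on chromosome 2, had 14498.9 in L, 21496 in H and 38580.3 in control. Among L, H and control, control was highest and L lowest at both peaks, as in the mitochondrial share. A link was not tested.

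Chromatin differed between LPS and HMW at 6 h, and more regions were higher in L than in H. Of the tested peaks, 4420 (3.70%) differed at an adjusted p under 0.05 in edgeR's quasi-likelihood test, with 2734 (2.29%) higher in L and 1686 (1.41%) higher in H. The median difference was 1.93-fold among peaks higher in L and 1.87-fold among those higher in H, and 294 and 89 of them exceeded a log2 fold change of 2 in size. Peaks higher in L made up 61.9% of the calls. With a stricter filter on low counts they made up 51.8%, at 2832 against 2637 higher in H. They made up 87% when libraries were scaled by total counts, which moved the median of all peaks to 0.14. The count fell to 1842 and 2369 without the first or second L library and to 1957 and 1767 without the first or second H library. With the mitochondrial share as a covariate, an alternative added after the data were seen, it fell to 966 (704 higher in L). The part of that share in the results was not tested further. With scaffold peaks and peaks over 1000 CPM left out, 4373 peaks were called, 2678 of them higher in L.

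Regions higher in L were on the median near the control level with HMW alone. Their median CPM was 3.93 in control, 4.85 in H and 9.69 in L. In groups that took no part in choosing these peaks the median was 9.44 in LH, 9.004 in P, 10.1 in PL and 10.1 in PH. At the peaks higher in H, control had the highest median of control, H and L, and L the lowest: the median was 10.4 in control, 9.3 in H, 4.93 in L, 6.25 in LH, 7.37 in P, 5.94 in PL and 6.5 in PH. Control lay below H at 60.4% of the peaks higher in L, and above H at 61.6% of those higher in H. These levels describe peaks chosen by L and H themselves and carry no test.

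**Figure D1:**
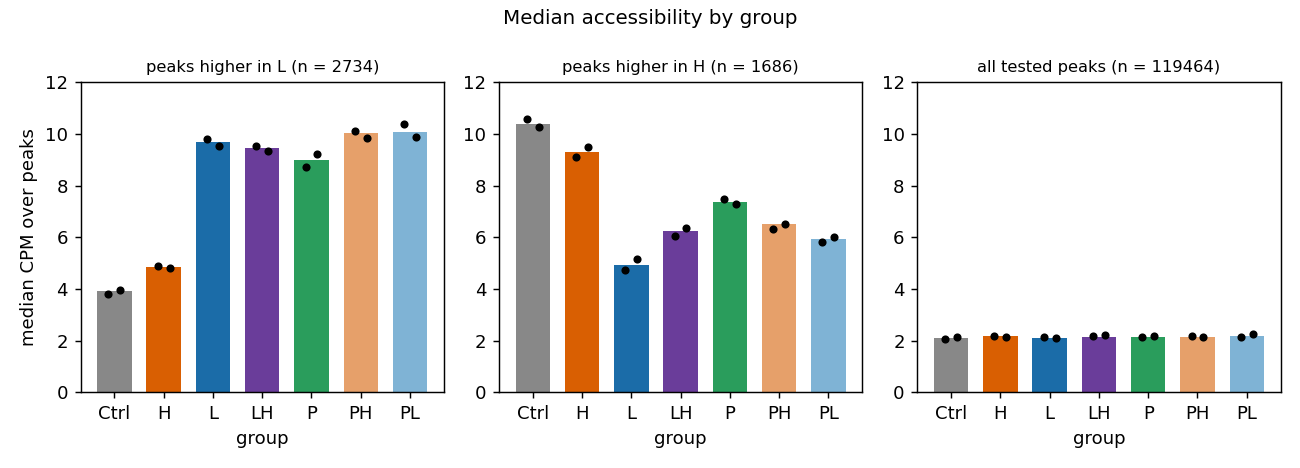
Median CPM over the peaks higher in L, the peaks higher in H and all tested peaks (y axis), by group (x axis); bars are the medians of the mean of both libraries and points the single libraries. In the left panel control and H stand near 3.93 and 4.85 and the other groups between 9.004 and 10.1, while all groups are near 2.11 over all tested peaks.

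The region that separated the ligands with the lowest p-value lay 197 kb from the start of Tent5a, a poly(A) polymerase of cytoplasmic RNA, outside any protein-coding gene (chromosome 9, 85524612 to 85525353). Its CPM, given for both libraries of a group, was 13.8 and 18.6 in L, 1.33 and 0.345 in H and 0.655 and 0.965 in control. Both L libraries stood over 10 times above both H libraries, which were at the control level. The log2 fold change of L over H (log2FC) was 4.16, with SE 0.27 and adjusted p = 2.43e-31. The pair and PAM groups were high there as well, with 18.3 and 16.6 in LH, 28.3 and 29.5 in P, 27.6 and 24.4 in PL and 28.6 and 28.4 in PH. A peak within Sh3bp5, which encodes a binding partner of the kinase Btk, gave 28.8 and 24.8 in L, 4.96 and 4.22 in H and 3.93 and 4.15 in control (chromosome 14, 31389532 to 31390613; log2FC 2.53, SE 0.17, adjusted p = 4.62e-29). At a broad peak over Hrc and Ppfia3 the CPM was 74.8 and 73 in L, 26.1 and 24.7 in H and 20.8 and 16.8 in control (chromosome 7, 45337840 to 45341840; log2FC 1.54, SE 0.10, adjusted p = 2.91e-29). At these 3 regions H was nearer to control than to L. Every L library stood above every H library there, as the rule that named these peaks required. Libraries of L and H did not overlap at 4419 of the 4420 called peaks. The test that called them favours such separation, and the share over all tested peaks was not counted. A lack of overlap at a called peak is therefore no further support.

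Among called peaks of a mean CPM of at least 1, the highest fold changes lay where H was low. The peak in Cwc27, a splicing-associated gene, had 51 and 36 counts in L against 2 and 1 in H, a ratio of 24.2 with a counting interval of 8.03 to 119.9 (95%, exact binomial). Near Amz2 the CPM was 7.84 and 5.56 in L, 0.127 and 0.69 in H and 0.546 and 0.868 in control (log2FC 4.13, SE 0.41, adjusted p = 1.54e-15), and in Htr2a, a serotonin receptor gene, it was 3.04 and 2.43 in L, 0.0635 and 0.345 in H and 0.218 and 0.579 in control (log2FC 3.80, SE 0.66, adjusted p = 1.1e-05). The other peaks of the 8 with the highest fold changes lay nearest to Eif4g2, Hp1bp3 (within Eif4g3), Il17d (within Ift88), Bend3 (within Pdss2) and Tent5a, with log2 fold changes between 3.67 and 4.16. All 8 kept the call with each of the 4 libraries left out.

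At gene starts, the highest fold changes in L were at Ppfibp2, Zfp811 (2 peaks), Ntng2, Cpeb2 and Itga5. Ntng2, a netrin family gene, gave 17.5 and 18.2 in L, 3.18 and 3.19 in H and 3.6 and 2.99 in control (chromosome 2, 29246498 to 29247792; log2FC 2.48, SE 0.19, adjusted p = 1.11e-23). Beside the start of the zinc finger gene Zfp811 the CPM was 20.1 and 18.7 in L, 2.41 and 2.24 in H and 0.874 and 1.74 in control (log2FC 3.04, SE 0.22, adjusted p = 7.11e-27). The Itga5 start, an integrin gene, was low throughout, with 2.47 and 3.67 in L, 0.953 and 0.517 in H and 0 and 0.482 in control (log2FC 2.02, SE 0.48, adjusted p = 0.00312). Ntng2, the Zfp811 peak given and Ppfibp2 kept the call with each library left out. Itga5 lost it without L_2 (adjusted p = 0.108) or H_2 (0.128). Cpeb2 lost it without L_1 (0.21), H_1 (0.256) or H_2 (0.0687) and the second Zfp811 peak without H_1 (0.0735).

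The lowest p-values among regions higher in H belonged to an unplaced scaffold, Amotl2, the neighbourhood of Pacrgl and the start of Pcdh7. The scaffold peak gave 186 and 194 in L, 302 and 304 in H and 322 and 319 in control (log2FC -0.68, SE 0.08, adjusted p = 3.43e-12). In Amotl2, an angiomotin family gene, the CPM was 6.78 and 7.17 in L, 18.1 and 22 in H and 19.3 and 20.9 in control (chromosome 9, 102730780 to 102731604; log2FC -1.51, SE 0.18, adjusted p = 7.5e-12). At 40.5 kb from Pacrgl it was 9.89 and 7.77 in L, 22.4 and 22.3 in H and 39.3 and 34.7 in control (chromosome 5, 48330983 to 48331922; log2FC -1.35, SE 0.16, adjusted p = 1.39e-11). L stood below control at both regions, and H was at the control level in Amotl2 and between control and L near Pacrgl. Pcdh7, a protocadherin gene, gave 36 and 43.5 in L, 63.2 and 73.9 in H and 74.3 and 67.4 in control (chromosome 5, 57714522 to 57720289; log2FC -0.78, SE 0.10, adjusted p = 9.21e-10). Among called peaks of a mean CPM of at least 1, the lowest fold change belonged to a region 47.4 kb from Gnaz, with 0.565 and 1.02 in L, 8.01 and 5.95 in H and 3.28 and 2.22 in control (log2FC -3.09, SE 0.41, adjusted p = 1.65e-09). There H lay above control and L below it. At gene starts the lowest fold changes included Samd5, Lipt2, Gm4981, Tom1l1 and Nwd1, all at low CPM, and of these only Nwd1 (1.27 and 1.19 in L, 4.38 and 4.91 in H and 7.97 and 7.43 in control; log2FC -1.91, SE 0.37, adjusted p = 0.000112) kept the call with each library left out, and it lost it with the mitochondrial covariate (adjusted p = 0.13). Over all 34 peaks named by the rule, 13 of 16 higher in L and 9 of 18 higher in H did.

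**Figure D2:**
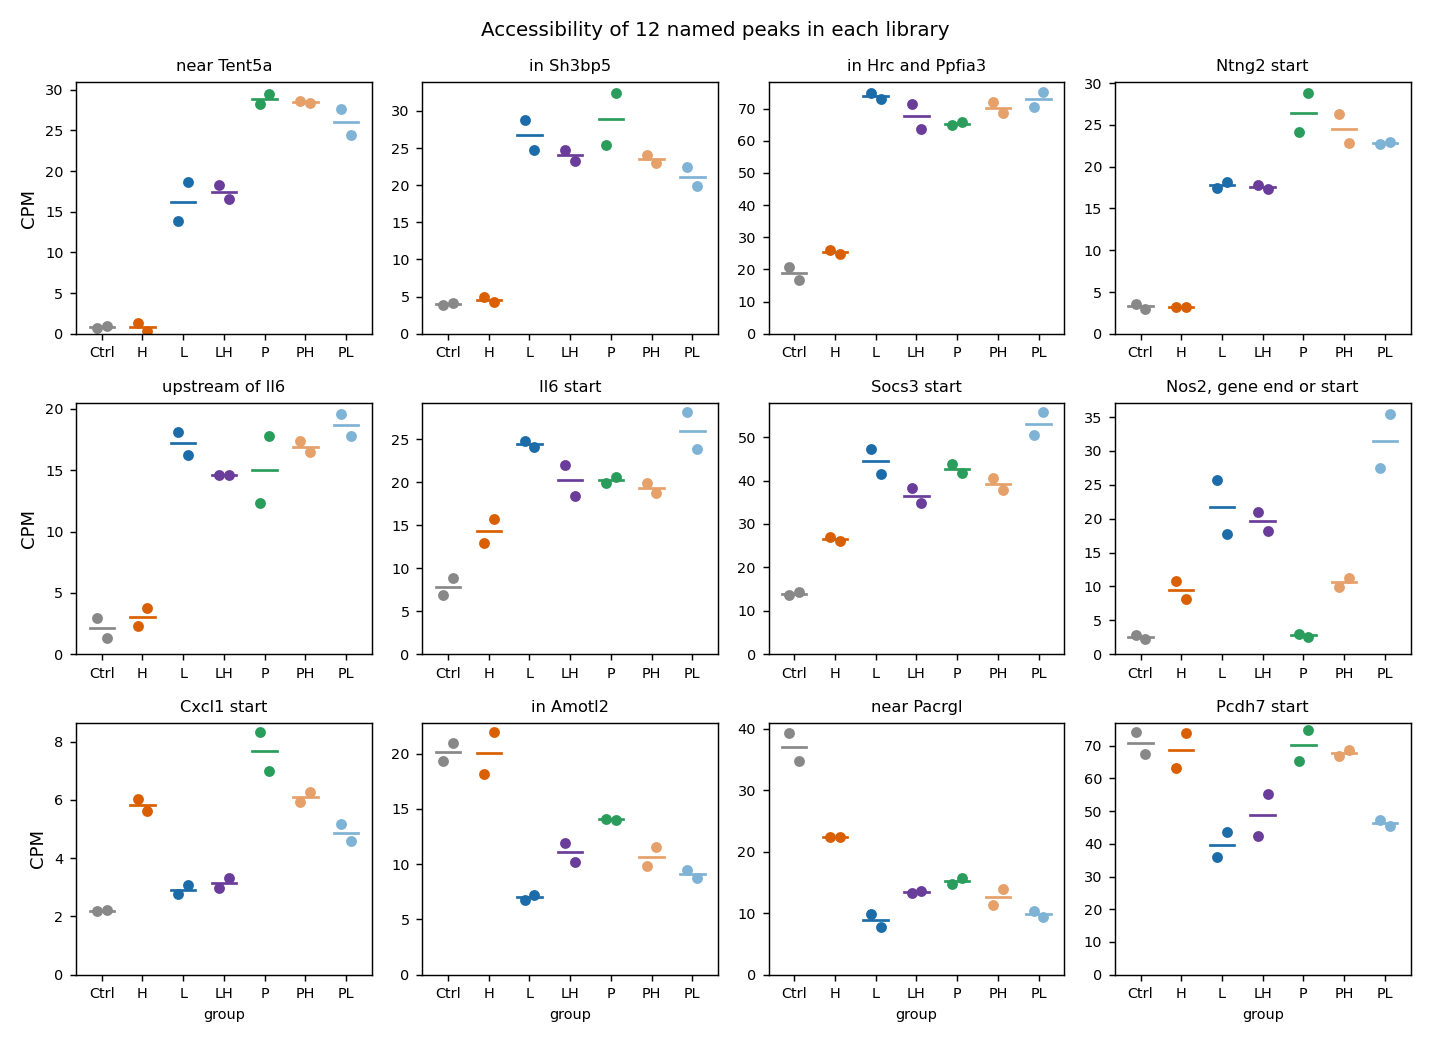
CPM (y axis, linear from 0) of 12 named peaks in each library of 7 groups (x axis); points are libraries and lines group means. At the 4 peaks of the top row and upstream of Il6 control and H are low and all other groups high, at Nos2 the groups with LPS are highest, and at Amotl2 and near Pacrgl control is high and L lowest.

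Of 20 inflammatory cytokine genes, all with a start peak, 4 had a more accessible start in L, 0 in H and 16 did not pass, and Il6 had the most called peaks around it. For 7 of these 20 the start was not known, and either gene end stood in for it. The same held for 6 of 15 chemokine, 7 of 38 interferon, 3 of 23 NF-kappaB and 5 of 22 receptor genes with a peak. It also held for 7 of 16 maturation, 6 of 17 macrophage, 2 of 13 AP-1 and 8 of 20 lineage genes. Of all start peaks, 2.06% were higher in L and 2.12% in H. Il6 encodes an acute-phase cytokine, and its start gave 24.9 and 24.2 in L, 12.9 and 15.8 in H and 6.88 and 8.87 in control (log2FC 0.78, SE 0.14, adjusted p = 2.38e-05). At Tnf, a cytokine released early by LPS-treated myeloid cells, the start gave 53.6 and 61.8 in L, 39.2 and 40.005 in H and 23.3 and 22 in control (log2FC 0.55, SE 0.10, adjusted p = 4.37e-05). Each L library was above each H library at both genes, and such a lack of overlap held at 4419 of the 4420 called peaks. Both genes kept the call with each library left out. The median log2FC of the 20 was 0.29 against 0.01 over all 15936 start peaks. The other 2 called starts, Csf3 (log2FC 1.41, SE 0.42, adjusted p = 0.0323) and Il18, whose peak also covers Bco2 (log2FC 0.48, SE 0.15, adjusted p = 0.0468), lost the call with any 1 of the 4 libraries left out (adjusted p up to 0.25 and 0.328).

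Peaks away from the cytokine starts were called as well, some with higher fold changes than the starts. Of 329 peaks whose nearest start was that of a listed cytokine within 100 kb, 30 (9.12%) were higher in L and 1 in H, against 2.34% and 1.25% of all peaks within 100 kb of a start. A region 91.9 kb before Il6 had a CPM of 18.2 and 16.2 in L, 2.29 and 3.79 in H and 2.95 and 1.35 in control (chromosome 5, 29919845 to 29921200; log2FC 2.53, SE 0.21, adjusted p = 4.77e-21). H was near the control level there and L stood over 4 times above both, while at the Il6 start H lay above control. The groups with PAM and the pair stood above control and H at this region as well, with 14.6 and 14.6 in LH, 12.3 and 17.8 in P, 19.6 and 17.8 in PL and 17.4 and 16.5 in PH. A second region, 6.89 kb after the Il6 start, gave 2.97 and 2.59 in L, 0.381 and 0.345 in H and 0.328 and 0.193 in control (log2FC 2.89, SE 0.48, adjusted p = 3.47e-06). Il12b, the shared subunit of IL-12 and IL-23, had a peak 9.33 kb away with 27.5 and 26.8 in L, 13.7 and 16.5 in H and 6.55 and 6.85 in control (log2FC 0.85, SE 0.13, adjusted p = 1.14e-07), and Il12a, the other IL-12 subunit, one at 1.47 kb with 11.6 and 11.2 in L, 5.27 and 4.57 in H and 6.01 and 6.66 in control (log2FC 1.20, SE 0.20, adjusted p = 6.73e-06). The cytokine counts were 16, 20, 13 and 14 in L and 0, 0, 0 and 0 in H without L_1, L_2, H_1 and H_2 in turn. The 4 peaks given here were among the 10 of 31 peaks called around cytokine genes that kept the call with each library left out, and 10 of the 31 were called with the mitochondrial covariate.

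Chemokine genes went both ways. Cxcl1 and Cxcl2 attract neutrophils through CXCR2. Of the genes of the 9 lists described here, they alone had a start called higher in H in the main fit. That fit used edgeR with TMM scaling and a minimum count of 10. A stricter filter on low counts called 3 lineage starts and 1 NF-kappaB start higher in H, and DESeq2 called 1 lineage start. At Cxcl1 the CPM was 2.76 and 3.07 in L, 6.04 and 5.6 in H and 2.18 and 2.22 in control, higher in H than in control or L, and highest with PAM alone at 8.33 and 7.004 (log2FC -0.99, SE 0.27, adjusted p = 0.0171). Cxcl2 gave 36.5 and 46.2 in L, 55.5 and 53.5 in H and 42.9 and 43.1 in control (log2FC -0.39, SE 0.10, adjusted p = 0.00605), with L at the control level and PAM alone highest at 85.9 and 86.2. Cxcl3, their neighbour in the cluster, had 4.17 and 4.53 in L, 5.08 and 7.24 in H and 6.34 and 3.76 in control and did not pass (log2FC -0.48, SE 0.25, adjusted p = 0.341). Ccl5, a T cell attractant, gave 49.6 and 39 in L, 31 and 29.5 in H and 5.13 and 4.44 in control (log2FC 0.54, SE 0.11, adjusted p = 0.000301), and the peak shared by Ccl3 and Ccl4, which attract monocytes and T cells, gave 30.7 and 32.1 in L, 23.6 and 19 in H and 24.9 and 19.2 in control (log2FC 0.55, SE 0.12, adjusted p = 0.00147). Cxcl16, whose peak also covers Zmynd15, was higher in L as well (log2FC 0.64, SE 0.16, adjusted p = 0.00808). In all, 4 of 15 genes with a start peak, on 3 peaks, were higher in L and 2 higher in H, with a median of 0.23, beside 2.06% and 2.12% of all start peaks. None of these 5 peaks kept the call with each library left out. Cxcl1 lost it with any of the 4 (adjusted p up to 0.17), and Cxcl2 without L_1 (0.398) or H_1 (0.105). The Ccl5 call was lost without L_1 (0.149) and that of Ccl3 and Ccl4 without H_2 (0.172). Cxcl16 was not called without L_2 (0.113), H_1 (0.0815) or H_2 (0.105). Under scaling by total counts 1 gene was called higher in H. Around the chemokine genes, 10 of 109 peaks were higher in L and 2 in H, beside 2.34% and 1.25% of all peaks within 100 kb of a start. The chemokine counts were 5, 11, 6 and 5 in L and 0, 1, 0 and 1 in H without L_1, L_2, H_1 and H_2 in turn, and 3 of the 12 kept the call each time and 5 were called with the mitochondrial covariate. Those higher in L included regions 28 kb from Ccl2 (27.4 and 27.8 in L, 14.3 and 16.3 in H, 25.1 and 18.6 in control) and 3.23 kb from Ccl7 (11.4 and 12, 4.64 and 4.66 and 1.75 and 3.09).

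In the main fit, genes listed as NF-kappaB subunits and feedback regulators were higher in L at their start or did not pass, and none was higher in H. Some members of the list, such as Ptgs2, are neither. A stricter filter on low counts called 1 start higher in H. Socs3, an inhibitor of cytokine receptor signalling, gave 47.3 and 41.5 in L, 27.1 and 26 in H and 13.5 and 14.3 in control (log2FC 0.74, SE 0.11, adjusted p = 1.82e-07). Nfkb2, which encodes the p100 and p52 subunit, gave 68 and 72.3 in L, 50.7 and 50.9 in H and 39.9 and 46.6 in control (log2FC 0.47, SE 0.09, adjusted p = 0.0003). H lay above control at both starts and L above H, with no overlap of libraries. Nfkbib, with a peak shared with Sirt2 (log2FC 0.46, SE 0.10, adjusted p = 0.000977), Rel (log2FC 0.28, SE 0.09, adjusted p = 0.0351) and Ptgs2 (log2FC 0.50, SE 0.15, adjusted p = 0.0363) completed the 5 of 23 genes higher in L, with a list median of 0.16, where 2.06% of all start peaks were higher in L. Socs3 and Nfkb2 kept the call with each library left out, but Nfkb2 lost it with the mitochondrial covariate (adjusted p = 0.159). Nfkbib lost it without H_1 (0.0697). Rel lost it without L_2 (0.598), H_1 (0.112) or H_2 (0.283), and Ptgs2 without L_1 (0.0918), L_2 (0.254) or H_2 (0.477). Around these genes 39 of 405 peaks (9.63%) were higher in L and 1 in H, beside 2.34% and 1.25% of all peaks within 100 kb of a start. The NF-kappaB counts were 21, 25, 16 and 22 in L and 0, 2, 0 and 1 in H without L_1, L_2, H_1 and H_2 in turn, and 12 of the 40 kept the call each time and 13 were called with the mitochondrial covariate. A region 22 kb after Socs3 had a CPM of 34.6 and 33 in L, 16.4 and 12.8 in H and 13.8 and 14.2 in control (chromosome 11, 117946131 to 117947323; log2FC 1.20, SE 0.13, adjusted p = 3.86e-14). In Tnip1, a partner of the inhibitor A20, an internal peak gave 33.6 and 33.7 in L, 16.3 and 14.5 in H and 11.4 and 12.8 in control (log2FC 1.12, SE 0.13, adjusted p = 3.74e-12), and in Nfkb1 one gave 19.3 and 18.6 in L, 6.74 and 6.98 in H and 4.81 and 3.86 in control (log2FC 1.46, SE 0.18, adjusted p = 4.77e-11). H overlapped control at the Socs3 region and lay a little above it in Tnip1 and Nfkb1, and L stood over 2 times above H in all 3.

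**Figure D3:**
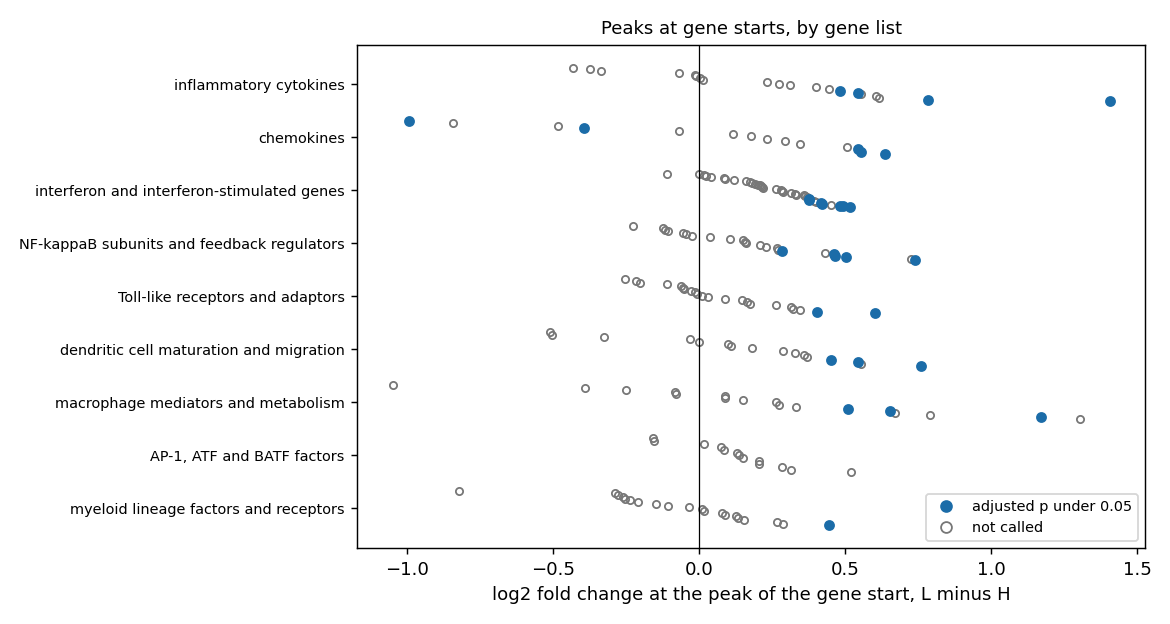
Log2 fold change, L minus H (x axis), at the start peak of each gene of 9 lists (y axis), or at either end where the start is not known. Filled points passed an adjusted p of 0.05 and open points did not. Filled points lie right of 0 except Cxcl1 at -0.99 and Cxcl2 at -0.39.

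Interferon-stimulated genes were slightly more accessible in L at a minority of starts. Of 40 genes, 38 had a start peak (Mx1 and Mx2 had none), 7 were higher in L, 0 higher in H and 31 did not pass, beside 2.06% and 2.12% of all start peaks. The median log2FC was 0.28 and none exceeded 0.52. Oas3, a sensor of double-stranded RNA, gave 50.3 and 55.1 in L, 37.9 and 37.6 in H and 17.6 and 24.3 in control (log2FC 0.48, SE 0.11, adjusted p = 0.00169), and Rsad2, which encodes viperin, gave 28.3 and 33.2 in L, 19.4 and 24.7 in H and 19.2 and 16.3 in control (log2FC 0.49, SE 0.13, adjusted p = 0.00728). The other 5 were Ifi205, Irgm1, Cmpk2, Dhx58 and Oasl1. Each of these 7 lost the call with at least 1 of the 4 libraries left out. With other settings, 2 were called with the mitochondrial covariate, and 19 were called under scaling by total counts. Ifnb1, the interferon beta gene, had 1.77 and 3.78 in L, 2.92 and 2.59 in H and 3.28 and 1.83 in control at its nearest peak and did not pass (log2FC 0.04, SE 0.29, adjusted p = 0.969).

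The lowest p-value around genes of this list belonged to a peak between the starts of Ifit2 and Ifit3, a pair of genes for antiviral RNA-binding proteins. The peak, 4.28 kb from the Ifit3 start and over Ifit2, gave 59 and 67.5 in L, 27.2 and 35.7 in H and 8.85 and 5.02 in control (chromosome 19, 34572687 to 34579247; log2FC 1.02, SE 0.12, adjusted p = 3.37e-12). LH overlapped L there at 63.2 and 61.3, PAM alone was below control at 4.89 and 2.82, and PL (30.5 and 36.4) overlapped PH (31.8 and 29). A peak within Usp18, which restrains interferon receptor signalling, gave 6.22 and 8.2 in L, 2.67 and 1.21 in H and 1.97 and 0.772 in control (log2FC 1.84, SE 0.27, adjusted p = 1.14e-07), and a broad one over Rsad2 gave 121 and 129 in L, 79.9 and 93.2 in H and 25.6 and 28 in control (log2FC 0.53, SE 0.09, adjusted p = 3.44e-06). These 3 kept the call with each library left out. Within 100 kb, 17 of 332 peaks (5.12%) were higher in L and 3 in H, the latter being 2 at Oasl1 and 1 near Gbp5, beside 2.34% and 1.25% of all peaks within 100 kb of a start. The interferon counts were 9, 7, 6 and 10 in L and 0, 0, 1 and 0 in H without L_1, L_2, H_1 and H_2 in turn, and 3 of the 20 kept the call each time and 7 were called with the mitochondrial covariate.

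Among mediators of activated macrophages, Nos2 had the highest log2FC of the called peaks at a gene start or end. Nos2 encodes inducible nitric oxide synthase, and its peak gave 25.6 and 17.7 in L, 10.9 and 8.1 in H and 2.84 and 2.22 in control (chromosome 11, 78959292 to 78963606; log2FC 1.17, SE 0.18, adjusted p = 3.77e-07). The peak lies at an end of Nos2, whose start is not in the table used, and also covers Lgals9. H lay between control and L with no overlap. Slc7a2, an arginine transporter, gave 47.1 and 47.7 in L, 34.6 and 31.7 in H and 33.2 and 31.6 in control (log2FC 0.51, SE 0.10, adjusted p = 0.000324), and Mmp14, a membrane metalloproteinase, gave 12.2 and 11.8 in L, 6.29 and 9.14 in H and 4.81 and 7.52 in control (log2FC 0.65, SE 0.21, adjusted p = 0.0485). These were the 3 of 17 genes with a peak that were higher in L, against 0 in H, where 2.06% and 2.12% of all start peaks were. Nos2 and Slc7a2 kept the call with each library left out, but Slc7a2 lost it with the mitochondrial covariate (adjusted p = 0.107). Mmp14 lost it without L_1 (0.226), L_2 (0.155) or H_1 (0.562). Of 363 peaks within 100 kb, 20 were higher in L and 2 in H, beside 2.34% and 1.25% of all such peaks. The macrophage mediator counts were 12, 22, 13 and 14 in L and 0, 1, 2 and 1 in H without L_1, L_2, H_1 and H_2 in turn, and 7 of the 22 kept the call each time and 11 were called with the mitochondrial covariate. Within Pfkfb3, a regulator of glycolysis, a peak gave 28.5 and 25.2 in L, 11.3 and 13.6 in H and 8.74 and 9.65 in control (log2FC 1.11, SE 0.14, adjusted p = 5.97e-10), and 26.7 kb from Ch25h, which makes 25-hydroxycholesterol, one gave 8.69 and 6.63 in L, 1.78 and 1.47 in H and 0.437 and 1.74 in control (log2FC 2.21, SE 0.31, adjusted p = 2.01e-08). At both H was nearer to control than to L, and both kept the call with each library left out.

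Genes of dendritic cell maturation were higher in L at 3 of 16 starts and at none higher in H, beside 2.06% and 2.12% of all start peaks. Ebi3, the partner of p28 in IL-27, gave 32.4 and 36.2 in L, 20.7 and 19.8 in H and 18.7 and 20.4 in control, with H near the control level, at a peak that also covers Zfp119b (log2FC 0.76, SE 0.12, adjusted p = 2.11e-06). At Cd40, the receptor for T cell help, H (25.7 and 23) lay above control (9.83 and 11.8) and L above both at 37.4 and 33.9 (log2FC 0.54, SE 0.12, adjusted p = 0.00101). Cd274, which encodes PD-L1 and shares its peak with Plgrkt, was the third gene (log2FC 0.45, SE 0.12, adjusted p = 0.00777). Ebi3 kept the call with each library left out. Cd40 lost it without L_1 (0.0603) or H_2 (0.0737), and Cd274 without L_1 (0.0681), L_2 (0.0599) or H_2 (0.198). Within 100 kb, 10 of 201 peaks were higher in L and 0 in H, beside 2.34% and 1.25% of all such peaks. The maturation counts were 5, 5, 7 and 4 in L and 0, 0, 0 and 0 in H without L_1, L_2, H_1 and H_2 in turn, and 1 of the 10 kept the call each time and 1 were called with the mitochondrial covariate.

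Toll-like receptors and their adaptors passed at 2 of 22 starts, both higher in L, beside 2.06% of all start peaks, and the median log2FC was 0.02. Tlr9, the receptor for unmethylated CpG DNA, gave 17.7 and 22.8 in L, 13.5 and 13.3 in H and 9.39 and 10.2 in control (log2FC 0.60, SE 0.16, adjusted p = 0.0106), and Traf3, an adaptor on the way to interferon, gave 44.7 and 44.2 in L, 34.3 and 32.8 in H and 27.2 and 34.5 in control (log2FC 0.40, SE 0.11, adjusted p = 0.02). Neither call held with each library left out. Tlr9 lost it without L_2 (0.348), H_1 (0.105) or H_2 (0.106) and Traf3 with any of the 4 (adjusted p up to 0.192). Tlr4, the receptor for LPS, had 49.7 and 44.8 in L, 52.7 and 57 in H and 69.1 and 69.3 in control at its peak and did not pass (log2FC -0.22, SE 0.10, adjusted p = 0.275). A peak 5.02 kb from Tlr4 was higher in H, with 11 and 11.8 in L, 19.1 and 15.8 in H and 28.2 and 24.5 in control (log2FC -0.62, SE 0.16, adjusted p = 0.0123). It lost the call without L_1 (0.146), L_2 (0.0696) or H_1 (0.294). In all 12 of 237 peaks within 100 kb were higher in L and 3 in H, beside 2.34% and 1.25% of all such peaks. The receptor counts were 4, 4, 4 and 2 in L and 1, 0, 0 and 1 in H without L_1, L_2, H_1 and H_2 in turn, and 0 of the 15 kept the call each time and 2 were called with the mitochondrial covariate.

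No start of the 13 AP-1, ATF and BATF genes was called by edgeR with TMM scaling, and the median was 0.14. Of all start peaks, 2.06% were higher in L and 2.12% in H. An unadjusted p under 0.05 was found at 2 of the 13, beside 18593 of all 119464 tested peaks. DESeq2 called 1 start higher in L, and edgeR called 2 under scaling by total counts, 1 with offsets that depend on abundance and 1 with a dispersion per peak. Around these genes 9 of 159 peaks were higher in L and 0 in H, beside 2.34% and 1.25% of all such peaks. The AP-1 counts were 6, 8, 6 and 6 in L and 0, 0, 0 and 0 in H without L_1, L_2, H_1 and H_2 in turn, and 5 of the 9 kept the call each time and 4 were called with the mitochondrial covariate. Batf, a partner of JUN and IRF proteins at composite sites, held 5 of those 9. Its start gave 5.02 and 3.88 in L, 3.37 and 2.76 in H and 3.93 and 2.41 in control and did not pass (log2FC 0.52, SE 0.31, adjusted p = 0.435). A peak 16.6 kb into the locus gave 6.22 and 8.25 in L, 1.78 and 0.431 in H and 0.765 and 0.386 in control (log2FC 2.61, SE 0.33, adjusted p = 1.58e-10), and the one next to it gave 54.8 and 55 in L, 32.5 and 33.5 in H and 31.6 and 30.4 in control (log2FC 0.74, SE 0.10, adjusted p = 1.95e-08). At both, H was near control and L above it without overlap. Among 20 lineage genes with a start peak, that of Cebpb, a C/EBP factor induced in inflammation, was the 1 that passed, with 50.9 and 52.4 in L, 38.1 and 37.8 in H and 41.2 and 46.3 in control (log2FC 0.44, SE 0.11, adjusted p = 0.00346). It lost the call without L_2 (0.0561), H_1 (0.056) or H_2 (0.057). The 1 called lineage start of 20 stood beside 2.06% of all start peaks higher in L. Around the lineage genes 13 of 386 peaks (3.37%) were higher in L and 4 (1.04%) in H. These shares were near the 2.34% and 1.25% of all peaks within 100 kb of a start. The lineage counts were 8, 5, 7 and 6 in L and 1, 4, 1 and 2 in H without L_1, L_2, H_1 and H_2 in turn, and 4 of the 17 kept the call each time and 3 were called with the mitochondrial covariate. A peak 21.2 kb from Bhlhe40, a transcriptional repressor, was among those higher in H, with 16 and 16.1 in L, 25.1 and 24.3 in H and 13.7 and 17.4 in control (log2FC -0.63, SE 0.13, adjusted p = 0.000649). There L lay at the control level and H above it.

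**Figure D4:**
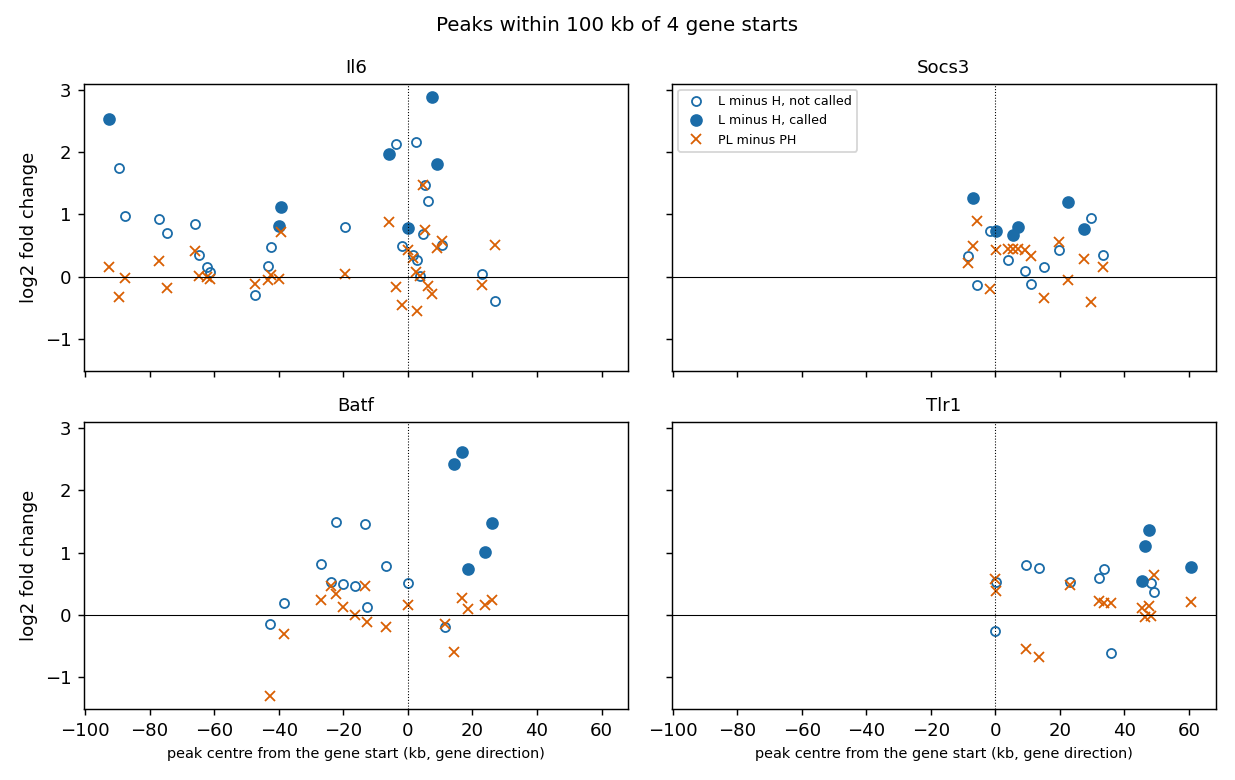
Log2 fold change (y axis) of each peak assigned to Il6, Socs3, Batf and Tlr1 by the nearest start within 100 kb, against the distance of its centre from the start in kb (x axis); circles are L minus H (filled where called) and crosses PL minus PH. Called were 7 of 31 peaks at Il6, 6 of 16 at Socs3, 5 of 17 at Batf and 4 of 14 at Tlr1, all above 0. Only genes with a known start were drawn, which left out Nfkb1 with 7 of 56, Slc7a2 with 4 of 51 and Nos2 with 4 of 25. Tnfaip3 with 4 of 45 and Il12a with 4 of 23 have a known start and are not drawn either.

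With PAM present in both arms, fewer peaks told LPS and HMW apart. PL against PH, which shares no library with L against H, gave 52 called peaks (0.0435%), 17 higher in PL and 35 higher in PH. There were 9248 at an unadjusted p under 0.05 against 18593 without PAM. The PL libraries held 12988823 and 9593847 counts outside the mitochondrial genome and the PH libraries 14104995 and 17084761. Pearson's r of log2 CPM was 0.928 between the PL libraries and 0.948 between the PH libraries. The part of depth and library spread in the lower count was not tested. The median PL minus PH was 0.04 over the 2734 peaks higher in L and -0.12 over the 1686 higher in H. PL was above PH at 55.4% of the first and 33.5% of the second, against 50.3% of all peaks. The count of 52 depended on single libraries, at 58 and 10 without the first or second PL library and 3 and 14 without the first or second PH library, and DESeq2 called 141. Its direction turned as well: without PL_1, PL_2, PH_1 and PH_2 in turn, 40, 6, 2 and 10 were higher in PL and 18, 4, 1 and 4 in PH, and 18, 5, 2 and 9 of the called peaks were among the 52.

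Nos2 told the ligands apart both without and with PAM, with the lowest PL against PH p-value of the peaks called in both. PL gave 27.4 and 35.4 there and PH 9.94 and 11.3, while PAM alone stood at the control level with 2.98 and 2.6 (PL minus PH 1.56, adjusted p = 4.85e-11). Of the 14 peaks called in both comparisons, 5 were higher with LPS in both: Nos2 and the peaks nearest to Bace2, Slamf1, Saal1 (over Saa3, an acute-phase protein gene) and Ints8. At the Saal1 and Saa3 peak the CPM was 23.5 and 19 in L, 11.1 and 12.5 in H and 10.9 and 9.93 in control, with 42.6 and 37.9 in PL and 18.2 and 24 in PH (PL minus PH 0.93, adjusted p = 1.06e-05). Near Slamf1, a receptor of the SLAM family, it was 15.8 and 14.9 in L, 8.39 and 8.02 in H and 5.46 and 6.75 in control, with 34.6 and 33.6 in PL and 18 and 21.6 in PH (PL minus PH 0.78, adjusted p = 0.00102). A further 8 were lower with LPS in both, at or near Pcdh7, Pax6, Eapp, Pxn, Cpb1, Hsd11b1, Dnase2b and Parp16. The Pcdh7 start gave 47.4 and 45.4 in PL and 66.8 and 68.6 in PH (PL minus PH -0.54, adjusted p = 0.00292). With each PL and PH library left out in turn, Nos2 was the 1 peak of the 14 that kept the PL against PH call, and all 14 kept their sign. Slamf1 (0.21), Saal1 (0.0869) and Ints8 (0.0513) lost the call without PH_1, Bace2 without PL_1 (0.118) or PH_1 (0.414), and Pcdh7 without PL_2 (0.162), PH_1 (0.0554) or PH_2 (0.0992). The other 8 lost it without at least 2 of the 4 libraries. The 1 peak of opposite sign lay 39.3 kb from Wwox, higher in L than H and lower in PL than PH.

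The difference between the ligands was itself tested for a difference without and with PAM. At 1140 peaks (0.954%) it differed, with 901 where L minus H exceeded PL minus PH. Over those 901 the median CPM was 3.77 in control, 4.42 in H, 10.3 in L, 11.2 in PL and 13.2 in PH. A low H and a high PH favour this choice of peaks, so the levels describe these 901 peaks and carry no test. The region near Tent5a (adjusted p = 4.8e-24), the one within Sh3bp5 (adjusted p = 6.51e-20), the distant Il6 peak (adjusted p = 1.15e-11) and the distant Socs3 peak (adjusted p = 4.04e-08) were among them. At the starts of Il6 (adjusted p = 0.55) and Socs3 (adjusted p = 0.483) no such difference passed. None passed at the peak at an end of Nos2 (adjusted p = 0.636) either. The count ranged from 544 without the second PL library to 1124 without the first. It was 324 with the mitochondrial covariate and 2011 under scaling by total counts. Under that scaling 93% lay above 0 against 79%.

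**Figure D5:**
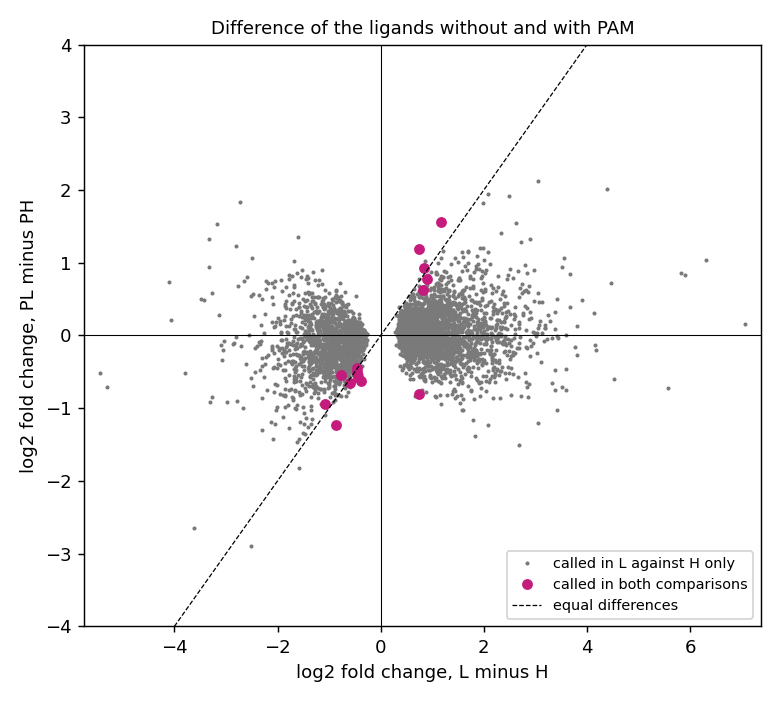
Log2 fold change of PL minus PH (y axis) against L minus H (x axis) for the 4420 peaks called in L against H; larger points mark the 14 called in both comparisons and the dashed line equal differences. The cloud lies along y = 0 on both sides, and 13 of the 14 larger points have the same sign on both axes.

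The pair of both ligands lay on the L side of the midpoint of L and H at 88.9% of the peaks higher in L and at 67.1% of those higher in H, a description of peaks chosen by L and H. LH differed from the midpoint of L and H on the log2 scale at 1368 of all peaks (1.15%), 1055 above and 313 below it, or 678 above and 367 below under scaling by total counts. Near Tent5a, LH stood 2.18 above the midpoint on the log2 scale (adjusted p = 2.49e-19), and at the distant Il6 peak 1.03 (adjusted p = 2.42e-06). Beyond the end of Slc7a2 a peak gave 28.4 and 32.4 in LH, above 17.9 and 19.5 in L and 8.45 and 8.79 in H, 1.25 above the midpoint (adjusted p = 1.07e-15). At Ccl5 LH gave 59.5 and 46, 0.53 above it (adjusted p = 2.5e-05). At the starts of Il6, Tnf and Socs3 and at the peak at an end of Nos2, LH did not differ from the midpoint past the threshold. The count fell to 464 and 329 without the first or second LH library.

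Peaks higher in H lay at gene starts more often than peaks higher in L. Within 1 kb of a protein-coding start were 12% of the peaks higher in L (95% exact binomial interval 10.8 to 13.3), 20.05% of those higher in H (18.2 to 22) and 13.3% of all tested peaks. The intervals cover counting error only, and neighbouring peaks are not independent. Peaks higher in H were also more often over 100 kb from any start, at 21.6% against 11.5% and 13.2% of all. Both sets were wider than all peaks, with median widths of 788 and 681 bp against 451. Their median CPM over L and H was also higher, at 7.22 and 7.18 against 2.14. The part of count level in these shares and in those around listed genes was not tested. On unplaced scaffolds lay 25 peaks higher in H against 0 higher in L.

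Promoters under called peaks were searched for 7 motifs on both strands in the RefSeq windows of 300 bases. The interferon regulatory factor motif GAAANNGAA stood in 8.93% of the 291 promoters under peaks higher in L (5.92 to 12.8), 4.53% of the 287 under peaks higher in H (2.43 to 7.62) and 7.31% of all promoters with a tested peak. The AP-1 motif TGANTCA stood in 8.93%, 4.53% and 5.13%, and the NF-kappaB motif GGNNTTTCC in 7.22%, 5.92% and 6.2%. The C/EBP motif TTGCNNAA stood in 11.3%, 10.5% and 8.52%, and the CTCF core AGGGGGC in 16.8%, 15.7% and 16.5%. The STAT motif TTCNNNGAA and the ETS motif AGGAAGT stood in 8.36% and 11.8% of promoters under peaks higher in H, 4.81% and 7.22% of those under peaks higher in L, and 6.7% and 9.32% of all. The intervals of L and H overlapped for each motif, these shares carry no test, and distant peaks were not searched.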

How the data were processed

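ATAC-seq counts per peak were read as deposited: raw whole-number read counts of 119751 peaks in 36 libraries, 2 in each of 18 groups. The submitters' processing notes name Bowtie2 2.2.9, MACS2 1.4, bedtools, featureCounts and build mm10, with no settings. Groups came from the sample titles. All 36 libraries were fitted together in edgeR 4.0.16 (R 4.3.3; TMM scaling, filterByExpr with a minimum count of 10, robust quasi-likelihood test, Benjamini-Hochberg over 119464 peaks), leaving 18 residual degrees of freedom; the mitochondrial peak was left out. The spread is therefore shared among groups, and 2 libraries a group limit the precision. CPM are counts scaled to library size after TMM. The fit was also run on simulated data with the same dispersion at every peak and no group difference except at chosen peaks in L. That run does not bear on the mitochondrial share. Gene names and starts came from RefSeq GRCm38.p6 (21900 protein-coding genes, 17492 with a known start, either end used for 4408). Named peaks were, among called peaks of a mean CPM of at least 1 without overlap of libraries, the 8 highest and 8 lowest fold changes, the 6 of each within 1 kb of a start and the 4 lowest p-values of each direction; listed genes took the highest peak at their start. One peak chosen by this rule is not reported here. Distant list peaks, the Il6, Socs3, Batf and Tlr1 loci, peaks called with PAM and printed promoters were chosen after values were seen, and the members and lists were chosen with earlier results of these data known. Alternatives covered scaling, filters, dispersion, depth, DESeq2 1.42.0, a replicate block, single libraries left out, scaffolds and a mitochondrial covariate.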

Additional observations from a re-analysis of the deposited data

Results flagged for a closer look

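The difference between LPS and HMW differed without and with PAM at 1140 peaks (edgeR quasi-likelihood test of the difference of differences, adjusted p under 0.05), 901 with L minus H above PL minus PH and 239 below. In the first set the median log2 fold change was 1.10 without PAM and -0.24 with it, and in the second -0.85 and 0.44. These medians describe peaks chosen by the same contrast.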

How the results depend on the processing

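No called peak among those named changed the sign of its log2 fold change under the alternatives run for it, while uncalled peaks near 0 such as that of Ifnb1 did (log2 fold change -0.65 to 0.44 with 1 library left out). The balance of PL against PH turned from 17 higher and 35 lower to 40 and 18 without PL_1, and more peaks were higher than lower with any 1 of its 4 libraries left out. Leaving out 1 library in turn, with the lone library of an arm assumed to vary like the other groups, gave 1767 to 2369 called peaks for L against H (main 4420), 3 to 58 for PL against PH (main 52), 544 to 1124 for the difference without and with PAM (main 1140) and 329 to 963 for LH against the midpoint (main 1368). For L against H these were 1842, 2369, 1957 and 1767 without L_1, L_2, H_1 and H_2. The mitochondrial share as a covariate, added after the data were seen, gave 966, 324 and 851 for L against H, the difference and the midpoint. Of the start calls of the 9 lists, 2 of 4 cytokine, 2 of 5 chemokine, 2 of 7 interferon, 1 of 5 NF-kappaB, 0 of 2 receptor, 1 of 3 maturation, 1 of 3 macrophage and 0 of 1 lineage peaks passed with it. PL against PH gave 141 with DESeq2, 83 with only its own groups, 133 with a stricter filter and 102 with a dispersion per peak. Scaling by total counts gave 2011 for the difference, and for L against H 6453 (5614 higher in L). A stricter filter gave 5469 for L against H, 51.8% of them higher in L against 61.9%. Thinning to 1 depth gave 847 for the midpoint, where fewer counts remain. Counting starts within 2 kb gave 15.6% of peaks higher in L, 22.7% of those higher in H and 17.5% of all. The cause of these shifts was not tested beyond that. Replicate numbers did not pair the samples (r of the replicate differences of L and H 0.000554), and a replicate block gave 4375, 56, 1115 and 1354 calls. Of the values of single named peaks under the alternatives, 1300 stayed on their side of the threshold, 36 passed it anew and 137 lost it.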
